A study of Mus musculus with 5 samples.

Results

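Peaks of acetylated histone were described at 10 genes that encode enzymes taking acetyl groups off lysine: the histone deacetylases Hdac1, Hdac2, Hdac3, Hdac4, Hdac5 and Hdac7 and the sirtuins Sirt1, Sirt2, Sirt6 and Sirt7. The genes were listed by name as deacetylases, with earlier results of these data known, and Sirt7 was included as the enzyme known for lysine 18 of histone H3. They are 10 of 21938 protein-coding genes in the GENCODE annotation of mouse genome build GRCm38. Every peak that touched a gene body, or the 10 kb on either side of it, was taken from 5 ChIPseq peak lists.

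ChIPseq had been performed on CD8+ T cells differentiated in culture into memory-type (TM) cells, by activation with antigen peptide followed by IL-15. For this differentiation the methods name OT-I cells and OVA peptide, and the caption of the genomic studies names splenic T cells. There were 2 WT libraries, labelled wildtype, and 3 TPdh-/- libraries, labelled PDH_Mutant. TPdh-/- mice carry the B6.129P2-Pdha1tm1ptl/J allele of Pdha1, which encodes a subunit of the pyruvate dehydrogenase complex, together with the Cd4-cre transgene B6.Cg-Tg(Cd4-cre)1Cwi/BfluJ. This Cre is driven by Cd4, which thymocytes of both T cell lineages switch on, so the deletion reaches CD8+ cells. The methods name young adult mice of both sexes. The methods say in general that measurements came from discrete samples, and the study gives more samples per condition than the libraries analysed here. Nothing ties each of these libraries to an animal or culture of its own, so p-values below measure only the spread between these libraries, which may be technical. The methods describe the antibody as recognising acetylated lysine of histones, and the labels add K18.

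Acetyl groups are placed on histone lysines from acetyl-CoA, which the pyruvate dehydrogenase complex can supply, and deacetylases remove them. Class I enzymes (Hdac1, Hdac2, Hdac3) are the catalytic subunits of nuclear co-repressor complexes, and class IIa enzymes (Hdac4, Hdac5, Hdac7) are signal-regulated partners of MEF2 transcription factors with little activity of their own. Sirtuins use NAD+ as a co-substrate, which ties them to the metabolic state of the cell. Peaks of histone acetylation commonly mark active promoters and enhancers, so the measurement here is acetylation at the genes of the deacetylases, not the amount or activity of the enzymes.

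Few sites at these genes were called in every library. Sirt6 and Hdac2 were covered at the 5' end in all 5 libraries, and Sirt2 had an intron site in all 5. The sequence under each of these 3 sites is shown because they are the places where the libraries can be compared peak by peak. It is read from GRCm38 in the direction of transcription, as the 250 bases just before the 5' end of Sirt6 (chr10:81627798-81628047, reverse strand) and Hdac2 (chr10:36974294-36974543, forward strand), and 300 bases of the Sirt2 intron from the stretch common to all 5 peaks (chr7:28780679-28780978, forward strand). Capitals mark matches, on either strand, to GGGCGG (SP/KLF factors) or TGCGCA (the core of an NRF1 site).
Sirt6 upstream: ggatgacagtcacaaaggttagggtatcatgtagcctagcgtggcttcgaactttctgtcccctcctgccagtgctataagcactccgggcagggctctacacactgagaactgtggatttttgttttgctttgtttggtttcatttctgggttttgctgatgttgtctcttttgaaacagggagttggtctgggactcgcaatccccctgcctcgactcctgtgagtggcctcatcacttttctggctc
Hdac2 upstream: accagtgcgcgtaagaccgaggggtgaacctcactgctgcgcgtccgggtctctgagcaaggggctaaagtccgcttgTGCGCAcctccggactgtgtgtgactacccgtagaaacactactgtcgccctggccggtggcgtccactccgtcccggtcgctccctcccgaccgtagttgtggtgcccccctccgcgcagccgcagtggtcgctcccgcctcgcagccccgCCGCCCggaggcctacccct
Sirt2 intron site: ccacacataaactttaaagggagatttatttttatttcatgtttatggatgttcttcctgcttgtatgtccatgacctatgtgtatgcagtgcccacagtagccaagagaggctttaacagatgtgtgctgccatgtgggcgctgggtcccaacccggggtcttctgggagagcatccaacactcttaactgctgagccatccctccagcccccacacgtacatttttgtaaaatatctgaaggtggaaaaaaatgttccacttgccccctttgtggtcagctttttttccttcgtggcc
The search also covered CCGGAAG (ETS factors), CCAAT (NF-Y) and TGACG (the core of a CRE site). The 3 windows differ in composition. The Hdac2 window had 68.8% GC and a ratio of observed to expected CpG of 0.931, with 1 SP/KLF and 1 NRF1 match that did not overlap. The Sirt6 window had 50% GC, a CpG ratio of 0.320 and no match. The Sirt2 window had 46.7% GC, a CpG ratio of 0.246 and no match, and annotated repeats made up 38.7% of its bases.

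Over the 32851 RefSeq promoter windows of 250 bases for GRCm38, the median GC content was 52.4% and the median CpG ratio 0.373, and 32.7% held an SP/KLF match, 33.8% NF-Y, 17.8% CRE, 6.91% ETS and 6.43% NRF1. RefSeq windows were matched for 8 of the genes, each at the RefSeq start nearest to the GENCODE 5' end. That start lay 42669 bp away at Sirt1 and 15358 bp away at Hdac4. Of the 8 windows, 6 held an SP/KLF match, 3 NF-Y, and 2 each CRE, ETS and NRF1. The 2 with CRE were those of Hdac4 and Sirt1. The CpG ratio was above the median of all windows in 7 of the 8, the exception being Hdac7 at 0.317. The RefSeq start of Sirt6 lies 231 bp from the 5' end used for the sequence above. Its RefSeq window differed from the printed one, with 56.8% GC, a CpG ratio of 0.653 and 1 ETS match. These letters describe the windows and say nothing of what binds there.

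The 5 lists differed in length, from 4920 peaks in TPdh-/- replicate 1 and 5419 in replicate 2 to 9418 in TPdh-/- replicate 3, 8859 in WT replicate 2 and 15962 in WT replicate 1. The deposited fold is the enrichment of a peak over the local background estimated by the peak caller, and its median was from 2.40 to 2.65. A percentile is the place of a peak within its own list by −log10 q, with 100 for the strongest. Per the labels, sequencing aimed at no fewer than 37000000 reads. How many reads stand behind each list is unknown, and a peak not called may lie below the threshold. Promoter peaks lay at 5 to 12 of 12 T cell marker genes, at Cd8b1 in all 5 libraries but at Cd8a in WT replicate 1 alone, and at 0 or 1 of 5 B cell genes. Among all coding genes the share with a promoter peak was from 15.3% to 42.1% per library. Of 5 myeloid genes Spi1 alone had a promoter peak, in all 5 libraries. Of 3 natural killer genes Nkg7 alone had one, in 4 libraries. Of 3 epithelial genes Cdh1 alone had one, in TPdh-/- replicate 3 at the 2.47 percentile. The helper T cell gene Cd4 was called at its promoter in both WT libraries (19.9 and 55.0 percentile) and in no TPdh-/- library, and Zbtb7b, the other gene of that list, in WT replicate 1 alone. Pdha1 had one in WT replicate 1 alone.

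In all, 54 peaks fell in the windows of the 10 genes, 26 in WT replicate 1, 9 in WT replicate 2, and 4, 4 and 11 in TPdh-/- replicates 1, 2 and 3. These were 0.163% and 0.102% of the WT lists and 0.0813%, 0.0738% and 0.117% of the TPdh-/- lists. WT replicate 1 held 15962 of the 44578 peaks of the 5 lists. Merged across libraries they made 27 sites. Of these, 13 were called in 1 library, 12 of them in WT replicate 1, while 8 were called in 2 libraries, 2 in 3, 1 in 4 and 3 in all 5. The 5' end of the gene lay under 6 of the sites, 5 sites lay outside the gene body, and 10 were within 1 kb of a start site of another gene.

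**Figure D1:**
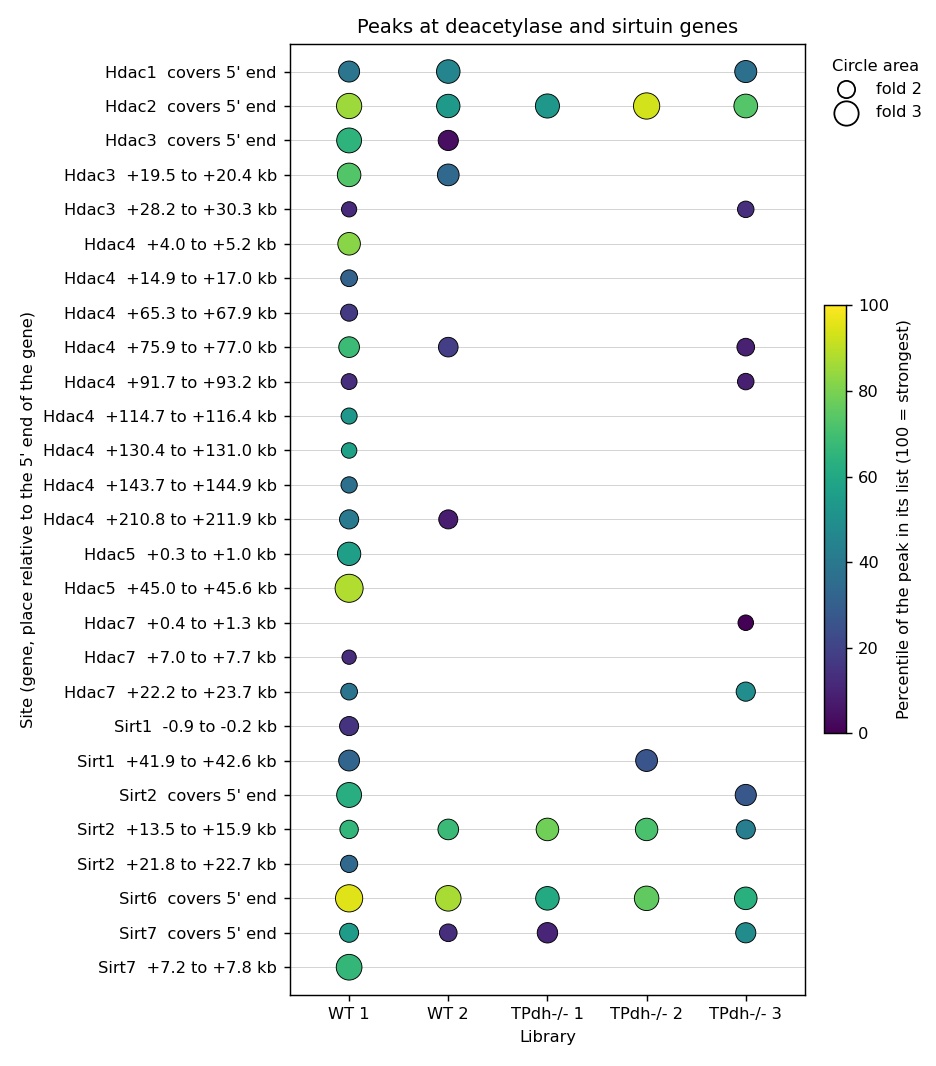
Each row is 1 of the 27 sites, placed by its distance in kb from the 5' end of the gene, and each column is a library. Circle area is the fold enrichment and colour the percentile of the peak in its own list. The 5' end sites of Hdac2 and Sirt6 and the intron site of Sirt2 are the 3 rows filled in all 5 columns. Another 12 rows are filled by WT replicate 1 alone, whose list is the longest.

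Among class I genes, the 5' end of Hdac2 carried the steadier mark, that of Hdac1 was called in 3 libraries, and that of Hdac3 in WT alone. Hdac2 lies at chr10:36974544-37001889 on the forward strand. The peak over its 5' end covered 2 start sites and the first coding bases. Its fold was 3.14 and 2.87 in the WT libraries and 2.97, 3.29 and 2.92 in TPdh-/- replicates 1, 2 and 3, so the groups overlapped. By rank it stood at the 85.3 and 54.0 percentile in WT and at the 53.3, 93.1 and 73.2 percentile in TPdh-/-, with its highest place, rank 372 of 5419 peaks, in TPdh-/- replicate 2. It was from 1148 to 1252 bp wide in WT and from 664 to 1311 bp in TPdh-/-. No other peak lay within 10 kb of Hdac2 in any library.

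Hdac1, the close relative of Hdac2 in the same complexes, lies at chr4:129516104-129542713 on the reverse strand. Its only site covered the 5' end, with a fold of 2.53 in WT replicate 1, 2.89 in WT replicate 2 and 2.68 in TPdh-/- replicate 3. These peaks lay at the 38.7, 45.6 and 36.7 percentile, below the middle of each list. TPdh-/- replicates 1 and 2 had no peak there. Among all coding genes, 4.81% shared this pattern of a promoter peak in both WT libraries and, of the TPdh-/- libraries, in replicate 3 alone.

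Hdac3 encodes the enzyme of the NCoR and SMRT co-repressors and lies at chr18:37935844-37955016 on the reverse strand. The site at its 5' end also covered the start of Rell2, which is transcribed the other way. Its folds were 3.08 and 2.41 in WT replicates 1 and 2, at the 64.8 and 3.83 percentile, and no TPdh-/- library had a peak. The WT replicate 2 peak ranked 8520 of 8859, near the threshold of calling. A site 377 bp past the 3' end of the gene lay at the start of Diaph1, and was likewise called in both WT libraries alone, at folds of 2.89 and 2.63. Within Diaph1, about 9 kb past Hdac3, WT replicate 1 and TPdh-/- replicate 3 had a weaker peak, at folds of 1.73 and 1.90.
Hdac3 was the only gene of the 10 whose promoter was called in both WT libraries and no other, a pattern held by 2.21% of coding genes. Cd4 was among the genes with that pattern, and its part in the result was not tested.

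No site of the class IIa genes covered the outermost 5' end. Hdac5 and Hdac7 each had a site within 1000 bp of it, in 1 library, and Hdac4 held most sites of the class. Hdac4 is the longest of the genes, 266.9 kb at chr1:91928779-92195699 on the reverse strand, and held 9 of the 27 sites, all within the gene body. None lay on its outermost 5' end, from which the nearest site was 3971 bp away. WT replicate 1 had a peak at all 9 sites, WT replicate 2 at 2, TPdh-/- replicate 3 at 2, and TPdh-/- replicates 1 and 2 at none. Of these, 6 sites were called in WT replicate 1 alone.
The strongest was the site closest to the 5' end, with a fold of 2.75 at the 82.3 percentile. A site from 14906 to 17029 bp into the gene had a fold of 1.93 at the 31.5 percentile. It covered the first exon of the annotated transcript with the longest coding sequence. That transcript begins at the RefSeq start, so the strongest site lies upstream of its start.
In intron 2 of the same transcript, the site at chr1:92118728-92119833 was the only site of Hdac4 called in 3 libraries. Folds there of 2.48 and 2.33 in WT replicates 1 and 2 and of 2.06 in TPdh-/- replicate 3 went with ranks of 5080 among 15962 peaks, 7267 among 8859 and 8552 among 9418. A site at chr1:91983811-91984934, over a coding exon, was called in both WT libraries and no other, at folds of 2.27 and 2.25 and at the 40.9 and 8.04 percentile.

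Hdac5, at chr11:102194432-102230166 on the reverse strand, had peaks in WT replicate 1 and in no other library. Its first site lay in intron 1, 281 bp from a start site, with a fold of 2.86 at the 55.9 percentile. Its other site lay 9235 bp past the gene at the start of Lsm12, with a fold of 3.55 at the 88.0 percentile, the highest fold among the 54 peaks.

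Hdac7, the class IIa gene known for its expression in thymocytes, lies at chr15:97792664-97844502 on the reverse strand. Near its 5' end, 52 bp from a start site, TPdh-/- replicate 3 had a peak with a fold of 1.77, and its rank of 9351 among 9418 made it one of the weakest calls of that list. No WT library had a promoter peak at Hdac7, a pattern of TPdh-/- without WT that 0.757% of coding genes showed. Farther into intron 1, from 22161 to 23747 bp past the 5' end, a site was called in WT replicate 1 with a fold of 1.93 and in TPdh-/- replicate 3 with a fold of 2.27, at the 38.5 and 48.8 percentile. Between these sites, WT replicate 1 had a further peak with a fold of 1.61.

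**Figure D2:**
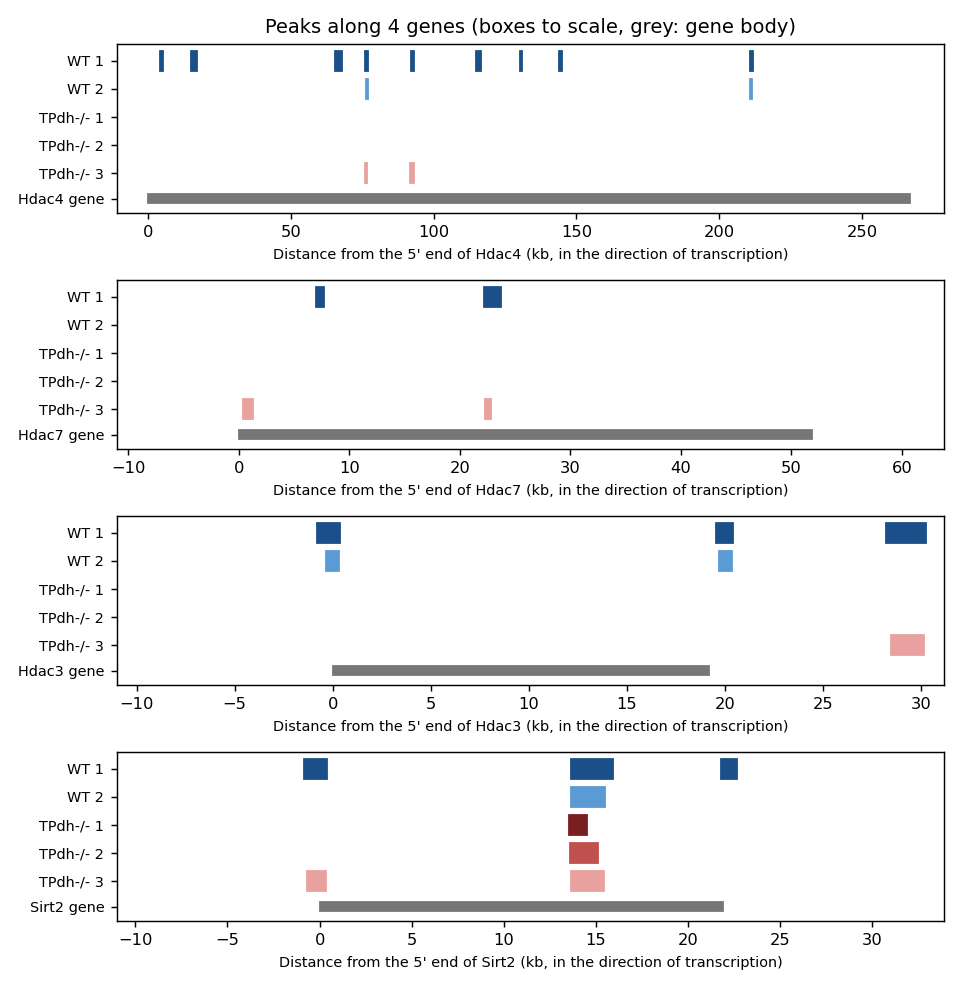
Peaks of the 5 libraries are drawn to scale along Hdac4, Hdac7, Hdac3 and Sirt2, with distance from the 5' end in kb in the direction of transcription and the gene body in grey. WT replicate 1 has a box at all 9 sites of Hdac4, WT replicate 2 and TPdh-/- replicate 3 at 2 each, and the Sirt2 intron site, from 13516 to 15942 bp, has a box in every library.

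Of the sirtuins, Sirt6 had a site over its 5' end in every library, at a percentile above the middle of each list. Sirt7 had a weaker one in 4 libraries, and Sirt2 one in 2. Sirt1 had none over its GENCODE 5' end, and a site beside its RefSeq start in 2 libraries. Sirt6 encodes a nuclear enzyme that binds chromatin and is known for restraining glycolytic genes. The gene is the shortest of the 10, 6.0 kb at chr10:81621785-81627797 on the reverse strand, and its only site covered the 5' end with all 4 annotated start sites. A start of Ankrd24 lies within 1 kb of it.
The fold of the Sirt6 peak was 3.43 and 3.18 in the WT libraries, against 2.89, 3.03 and 2.75 in TPdh-/- replicates 1, 2 and 3. Both WT values were above all 3 TPdh-/- values, as at 15.8% of the 2390 coding genes with a promoter peak in all 5 libraries. The same order held for the percentile, which was 95.1 and 86.8 in WT and 60.7, 75.7 and 63.4 in TPdh-/-. It also held for the width in bp, with 1555 and 1447 for the WT peaks and 1367, 1355 and 1385 for the TPdh-/- peaks. Of the same genes, 26.4% had this order in percentile and 31.3% in width. In WT replicate 1 the peak ranked 786 of 15962, and was stronger by −log10 q than the promoter peak of 91.4% of the coding genes that had one, against 80.2% in WT replicate 2 and 49.9%, 65.7% and 49.6% in TPdh-/- replicates 1, 2 and 3.

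Sirt7, the deacetylase of lysine 18, lies at chr11:120618372-120625240 on the reverse strand. The site at its 5' end covered 8 start sites and also touched Mafg and the microRNA gene Mir6936. Folds were 2.25 and 2.06 in WT replicates 1 and 2, and 2.44 and 2.41 in TPdh-/- replicates 1 and 3, and TPdh-/- replicate 2 had no peak. The percentile was 55.0 and 12.9 in WT and 10.4 and 48.1 in TPdh-/- replicates 1 and 3, so the presence of the peak and its rank did not separate the groups. In WT replicate 1 a stronger peak, with a fold of 3.20 at the 66.2 percentile, lay 332 bp past the gene at the start of Pcyt2.

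Sirt2, a mainly cytoplasmic deacetylase known for acting on tubulin, lies at chr7:28766735-28788661 on the forward strand. Its 5' end, within 1 kb of a start of Nfkbib, was called in WT replicate 1 with a fold of 3.08 at the 62.7 percentile and in TPdh-/- replicate 3 with a fold of 2.55 at the 27.0 percentile.
A site at chr7:28780251-28782677, in intron 8 and touching no annotated exon, was called in all 5 libraries. Its fold was 2.17 and 2.47 in WT and 2.75, 2.73 and 2.26 in TPdh-/- replicates 1, 2 and 3. The percentile was 65.6 and 67.6 in WT and 78.2, 71.4 and 42.5 in TPdh-/-. In fold and rank the groups overlapped, while in width they did not, with 2286 and 1834 bp for the WT peaks against 1005, 1516 and 1821 bp for the TPdh-/- peaks. Such an order in width was found at 33.5% of the 3099 sites called in all libraries. At the 3' end, on the start of Rinl, WT replicate 1 had a further peak at a fold of 2.00.

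Sirt1, which encodes the nuclear sirtuin known for deacetylating histones and transcription factors, lies at chr10:63319005-63381704 on the reverse strand. A site 178 bp upstream of it, at the start of the oppositely transcribed Dnajc12, was called in WT replicate 1 alone, with a fold of 2.26 at the 14.5 percentile. The RefSeq start matched to Sirt1 lies 42669 bp from its GENCODE 5' end. The window before that start had 79.2% GC and a CpG ratio of 1.07. Beside that start, in intron 5 of the annotated transcript with the longest coding sequence, a site was called in 2 libraries. The peaks lay 244 bp from a start site in WT replicate 1 and 111 bp in TPdh-/- replicate 2. Their folds were 2.51 and 2.65, at the 32.2 and 26.0 percentile.

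**Figure D3:**
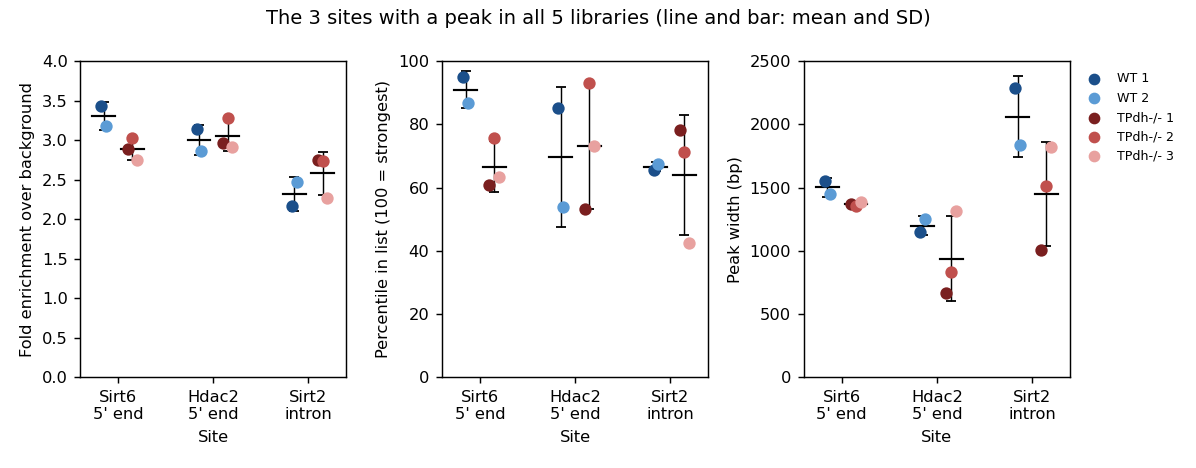
Fold enrichment, percentile in the list and peak width in bp are plotted for the 3 sites called in all 5 libraries, with 1 point per library and a line and bar for the mean and SD of WT (n = 2) and TPdh-/- (n = 3). The WT points of Sirt6 lie above the TPdh-/- points in all 3 panels, and those of Hdac2 overlap them. Of the 2390 coding genes with a promoter peak in all 5 libraries, 15.8% have that order in fold, 26.4% in percentile and 31.3% in width.

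The groups were then compared, to ask whether acetylation at the deacetylase genes differed in TPdh-/- cells. On average more of the genes had a promoter peak in WT, though WT replicate 2 and TPdh-/- replicate 3 had equal counts. A promoter peak, within 3000 bp of any annotated start site, was present at 9 and 6 of the 10 genes in WT replicates 1 and 2 and at 3, 4 and 6 in TPdh-/- replicates 1, 2 and 3. Over all coding genes, these libraries had a promoter peak at 42.1%, 24.8%, 15.3%, 16.5% and 27.9%. The count at the 10 genes was thus highest where the list was longest. At Sirt2 the intron 8 site counted as a promoter peak where it came within 3000 bp of an internal start. It alone gave the Sirt2 count in WT replicate 2 (2391 bp) and TPdh-/- replicate 2 (2754 bp). In TPdh-/- replicate 1 it lay 3243 bp away and was not counted. Within 1000 bp of the 5' end itself, the counts were 8, 5, 3, 2 and 6, against 36.2%, 20.3%, 12.6%, 13.8% and 23.4% of coding genes. Internal starts, among them the RefSeq starts of Hdac4 and Sirt1, and the neighbouring Pcyt2 are no longer taken there. The site on the start of Dnajc12 still counts for Sirt1 in WT replicate 1. Each of the 10 genes had a promoter peak in at least 1 library, as had 43.3% of coding genes, a count that describes a list chosen with earlier results known. Hdac2 and Sirt6 had one in all 5, as had 10.9% of coding genes. With a window of the gene body and 10 kb, 10, 7, 4, 4 and 8 genes had a peak, against 54%, 36.4%, 23.2%, 24.7% and 39.2% of coding genes.
The mean number of genes with a promoter peak was 7.5 in WT and 4.33 in TPdh-/-, a difference of 3.17. When each list was reduced to its 4920 strongest peaks the direction turned, with means of 3 and 3.33. Without WT replicate 1 the difference was 1.67, and the difference in number of peaks went from 11.2 to 2.67, while without WT replicate 2 it was 19.7.

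**Figure D4:**
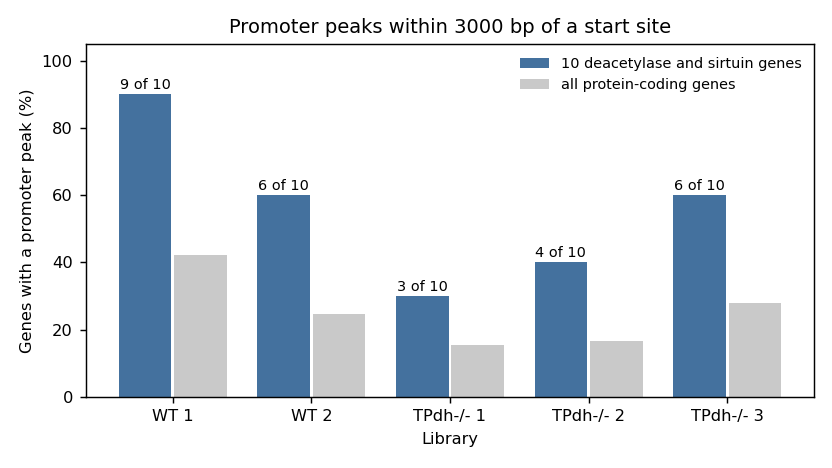
Bars give the percentage of genes with a promoter peak in each library, in blue for the 10 deacetylase and sirtuin genes, with their number above the bar, and in grey for all protein-coding genes. Both rise and fall together over the libraries, from 90% and 42.1% in WT replicate 1 to 30% and 15.3% in TPdh-/- replicate 1.

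An exact permutation test over the 10 ways to divide 5 libraries into 2 and 3 has a smallest two-sided p of 0.2, so no gene could pass 0.05. By promoter peak, Sirt6 and Hdac2 could be compared, since they had one in all 5 libraries, and by site also the Sirt2 intron. At Sirt6 the mean log2 fold was 1.72 in WT (SD 0.077, n = 2) and 1.53 in TPdh-/- (SD 0.069, n = 3), a difference of 0.19 (exact permutation test, two-sided, p = 0.2). After Benjamini-Hochberg adjustment over 2390 genes p was 0.837. Both WT libraries lay above all TPdh-/- libraries in fold at 15.8% of these genes, in percentile at 26.4% and in width at 31.3%. The Sirt6 percentile was 24.3 higher in WT, where the median over the 2390 genes was 9.21 higher, and its width 132 bp larger, where the median was 235 bp larger (each p = 0.2, exact permutation test, adjusted 0.72 and 0.634).
At Hdac2 the log2 fold differed by -0.02 and the percentile by -3.58, both with the lower mean in WT (exact permutation test, two-sided, p = 0.8 and 1). With lists of equal length the percentile difference was -30.1. The peak was 264 bp wider in WT on average (p = 0.6, exact permutation test).
At the Sirt2 intron site the log2 fold was 1.21 in WT (SD 0.136, n = 2) and 1.36 in TPdh-/- (SD 0.158, n = 3), a difference of -0.15 (exact permutation test, p = 0.4, adjusted 0.863 over 3099 sites called in all libraries). Its width was 613 bp larger in WT (exact permutation test, p = 0.2, adjusted 0.591), an order without overlap that 33.5% of those sites had.

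The length covered by peaks, which is 0 for a gene without any, could be compared at all 10 genes. It was larger on average in WT at each of the 10, as at 94.2% of the 12312 coding genes with a peak. The groups did not overlap at Hdac3 and Sirt6, with both WT libraries above, as at 26% of those genes. Hdac3 had a mean of 2186 bp in WT (SD 1208, n = 2) and 240.3 bp in TPdh-/- (SD 416, n = 3) (exact permutation test, two-sided, p = 0.2, adjusted 0.769). Every site in the Hdac3 window also overlapped Rell2 or Diaph1. The length in TPdh-/- came only from the peak of replicate 3 within Diaph1. The largest mean difference was 6067 bp at Hdac4, where WT replicate 1 set the WT value (exact permutation test, p = 0.4). At Hdac1, Sirt2 and Sirt7 p was also 0.4, at Hdac2 it was 0.6, and at Hdac5, Hdac7 and Sirt1 it was 0.8 (exact permutation tests). Over the 10 genes together, peaks covered 30.2 and 8.715 kb in WT and 3.727, 4.306 and 11.977 kb in TPdh-/-, so TPdh-/- replicate 3 lay above WT replicate 2.

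Genes that work with these enzymes were read by the same promoter window. Of 55 such genes, 47 and 25 had a promoter peak in WT and 16, 16 and 30 in TPdh-/-, 11 had one in all 5 libraries and 7 in none. The shares of coding genes to read these against are 42.1% and 24.8% in WT, 15.3%, 16.5% and 27.9% in TPdh-/-, and 10.9% in all 5. A promoter peak in both WT libraries alone was found at 2 of the 55, against 2.21% of coding genes. Of the 8 remaining deacetylases, 5 and 2 were called in WT and 0, 0 and 3 in TPdh-/-. Hdac11 had a promoter peak in both WT libraries and no TPdh-/- library, at folds of 2.01 and 2.07. In WT replicates 1 and 2 it lay at the 32.2 and 5.56 percentile. Hdac6, Hdac9 and Sirt4 had no promoter peak anywhere.
For SIN3 the counts were 10, 4, 3, 3 and 6 of 11 genes in the order WT 1, WT 2, TPdh-/- 1, 2 and 3. Its genes with a peak in all 5 were Rbbp4, a histone-binding subunit with folds from 2.73 to 3.19, Arid4b with folds from 2.01 to 2.41, and Suds3 with folds from 2.30 to 2.62. Sap18 was called in both WT libraries alone. Rbbp7, named after its values were seen, was called in TPdh-/- replicate 3 alone, at a fold of 2.48.
For NuRD the counts were 8, 4, 4, 2 and 6 of 9. Mta2, one of its scaffold subunits, had folds of 4.12 and 4.55 in WT and 3.35, 4.13 and 3.98 in TPdh-/-, higher than any deacetylase gene in all 5 libraries. Mta3 was also called in all 5, at folds from 2.12 to 2.48, and Mbd3 in none. For CoREST and MiDAC the counts were 5, 3, 1, 2 and 3 of 6, with none in all 5, and the lysine demethylase gene Kdm1a had no promoter peak in any library.
In the NCoR/SMRT complex of Hdac3, 5, 3, 2, 2 and 3 of 5 genes were called. Ncor1, the co-repressor itself, had a promoter peak in all 5 libraries, at folds of 3.18 and 3.03 in WT and 2.45, 2.79 and 2.81 in TPdh-/-. Both WT values were above the 3 TPdh-/- values there, as at 15.8% of the genes called in all libraries.
Class IIa partners were called at 9, 6, 5, 5 and 6 of 9 genes, with 5 genes in all libraries. The strongest by mean percentile were the transcription factor gene Mef2a, with folds from 2.82 to 3.54, and the phosphoprotein adaptors Ywhae, from 2.88 to 3.41, and Ywhaz, from 2.03 to 2.68. Their groups overlapped in fold.
Among genes of NAD+ supply, on which sirtuins depend, 5, 3, 1, 2 and 3 of 7 were called and none in all 5. Nmnat2 and Naprt had no promoter peak in any library.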

How the data were processed

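ChIPseq of acetylated histones was available as 5 peak lists, WT (n = 2) and TPdh-/- (n = 3). Per the labels and methods, the authors aligned reads to GRCm38/mm10 with BWA 0.7.17, kept uniquely mapping reads outside blacklisted regions with SAMtools 1.15.1, and called broad peaks per library with MACS2 2.2.6. No input control is named in the sources used here. Column 7 of the deposited lists holds the fold, a linear ratio, column 8 the −log10 p and column 9 the −log10 q by which peaks were ranked. A display score the authors deposited in column 5 is made from column 9 and was not used.

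The 10 genes and the other lists were chosen with earlier results of these data known. Of the other lists, the genes named are the 3 strongest by mean percentile among those with a promoter peak in all 5 libraries, those with none, and those with one in both WT and no TPdh-/- library. Peaks were assigned with GENCODE M21, with an overlap of at least 1 bp, and merged across libraries into sites. The strongest promoter peak by −log10 q stood for a gene. Differences were tested in Python 3.11.15 (numpy 2.4.6, scipy 1.17.1; tables with pandas 2.3.3) by exact permutation, two-sided, as double the smaller one-sided p, with Benjamini-Hochberg adjustment over all coding genes or sites tested. Log2 folds needed no pseudocount. The scripts were tested on simulated lists. Mideas was matched as Elmsan1. Tests of single sites were added after seeing the data. Alternatives were lists of equal length, minimum −log10 q values of 2 and 5, promoters within 1000 bp, coding transcripts alone, peak midpoints, a window of 3 kb, the replicate block and leaving out each library.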

Additional observations from a re-analysis of the deposited data

How the results depend on the processing

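Differences are WT minus TPdh-/-. When only the 4920 strongest peaks of each list were kept, the difference in number of genes with a promoter peak changed from 3.17 to -0.333, in number of peaks from 11.2 to 0.5, and in log2 covered length from 1.54 to 0.40, and covered length turned at Hdac7 (-192 bp), Sirt1 (-200.3 bp) and Sirt7 (-531 bp), while the percentile difference of Hdac2 went from -3.58 to -30.1. This alternative takes most peaks from the longer lists by construction. With a −log10 q of at least 5, covered length turned at Hdac2 (-141 bp), and log2 covered length over the 10 genes had no value, since TPdh-/- replicate 1 kept no peak. Leaving out each library in turn gave from 1.67 to 4.67 genes, from 2.67 to 19.7 peaks and from 0.39 to 2.28 in log2 covered length. The lowest values came without WT replicate 1, which also turned covered length at Hdac7 and Sirt1, whose differences ranged from -511 to 1831 bp and from -200.3 to 1055 bp. At Hdac2 the log2 fold difference ranged from -0.090 to 0.040 and the percentile difference from -19.2 to 12.1, and both turned without WT replicate 2 and without TPdh-/- replicate 2 (0.03 and 6.38). Replicate numbers 1 and 2 are shared by the groups, and no label says that a number marks a shared animal or batch. The deviations of same-numbered libraries over 2390 genes correlated at r = -0.108 and 0.0645, and with 2 WT libraries, whose deviations mirror each other, this cannot settle whether the numbers pair samples. The replicate block, in which TPdh-/- replicate 3 has no partner and drops out, gave differences of 4 genes, 13.5 peaks and 2.02 in log2 covered length. Of 32 values over the 10 genes together, 26 moved by less than 1 SD. An alternative chosen after seeing the data, promoters within 1000 bp of the 5' end, gave 2.83 genes. Of 148 values for single genes, 134 kept their direction, 4 became 0 and 10 turned, as listed. The cause was not tested unless stated. The number of reads behind each list is unknown, and with 2 libraries against 3 it cannot be told apart from genotype.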

Other observations

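Just inside the 10 kb limit, the farthest peak was that of TPdh-/- replicate 3 within Diaph1, 9.28 kb past Hdac3, with a fold of 1.90 at the 13.5 percentile. Just outside it, the nearest was a peak of WT replicate 1 at 11.3 kb from Hdac7, with a fold of 1.90 at the 8.62 percentile. In all, 7 peaks lay from 0 to 10 kb outside a gene body and 22 from 10 to 20 kb. At about 20 kb from Sirt2, a place picked after its values were seen, all 5 libraries had a peak, with folds of 2.27 and 2.34 in WT and 2.46, 2.48 and 2.51 in TPdh-/-, and percentiles of 89.6 and 76.7 in WT and 73.1, 84.4 and 91.6 in TPdh-/- replicates 1, 2 and 3.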
